A study of Homo sapiens with 2 samples.

Results

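ATF4 and 9 genes that act with it or under its control were followed in the RNA-Seq of differentiating human embryonic stem cells with and without MEIS2. The 10 genes were ATF4, ATF3, DDIT3, TRIB3, CHAC1, SESN2, ASNS, PHGDH, PSAT1 and PSPH. They were chosen by function, with earlier results of these data known. NCBI Gene numbers located them among the 17397 genes listed in both expression tables. All 10 were above 1 FPKM in both libraries and therefore belonged to the 13075 genes compared. FPKM is the number of fragments relative to the length of a transcript and to the mapped total of the library, so it is a level per transcript length. Both libraries came from H1, an established human embryonic stem cell line, at day 4 of hematopoietic differentiation, after activin A (50 ng/ml) and BMP4 (40 ng/ml) for 2 days and VEGF (40 ng/ml) and bFGF (50 ng/ml) for 2 days. The WT library carried wild-type MEIS2, and the MEIS2-/- library came from H1 cells in which a guide RNA against exon 3, delivered with Cas9 by lentivirus, had disrupted both copies. The mutant lines were grown from single cells, and the clone that was sequenced is not given in the sources used here. MEIS2 mRNA was at 10.85 FPKM in the WT library and 3.44 FPKM in the MEIS2-/- library. With 1 library per genotype there was no replicate and no test, so every difference below describes 2 libraries.

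ATF4 is a bZIP transcription factor at the centre of the integrated stress response. Kinases that sense amino acid shortage, unfolded proteins in the endoplasmic reticulum, heme shortage or double-stranded RNA phosphorylate the initiation factor eIF2, general translation slows, and ATF4 mRNA is translated more because of short open reading frames in its leader. ATF4 protein, usually paired with a C/EBP protein, binds composite elements known as C/EBP-ATF response elements (CARE) and induces genes for amino acid synthesis and import, for feedback on the response and, when stress lasts, for cell death. Serine synthesis from a glycolytic intermediate by PHGDH, PSAT1 and PSPH is among the pathways it is known to support. Since ATF4 is controlled largely at translation, its mRNA is only a partial measure of its activity.

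The genes ranged from clearly lower in the MEIS2-/- library to nearly equal. CHAC1 and ASNS were at least 2-fold lower in the MEIS2-/- library, with log2 fold changes of -1.70 and -1.21 (on the scale log2(FPKM + 0.1), MEIS2-/- minus WT, where differences of low genes come out too small). TRIB3, ATF3, ATF4 and DDIT3 were lower by less, with log2 fold changes between -0.82 and -0.36. PHGDH, PSAT1, PSPH and SESN2 lay within 0.1 log2 units of 0. No gene of the 10 was 2-fold higher. Among all compared genes, 7.97% were at least 2-fold lower and 7.84% at least 2-fold higher, so with 10 genes the 2 that were 2-fold lower and the absence of any higher gene are descriptions and not evidence about the pathway. The median log2 fold change of the 10 genes was -0.39, and that of all compared genes was 0.12. Of the 10 genes, 9 had the lower value in the MEIS2-/- library, against 40.6% of compared genes, but 3 of these 9 differed by less than 0.1. Setting the median log2 ratio of the libraries to 0 shifted the log2 fold changes by -0.11 and trimmed-mean (TMM) scaling by -0.10. After either rescaling PHGDH was also lower, so that 10 of 10 genes were lower, against 49.7% of compared genes with the first and 48.9% with the second. Because the 10 genes were chosen with earlier results of these data known, these shares are no independent comparison. The genes at least 2-fold lower and higher, 1042 and 1025 of all compared as deposited, became 1197 and 815 with the first and 1179 and 837 with the second.

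**Figure D1:**
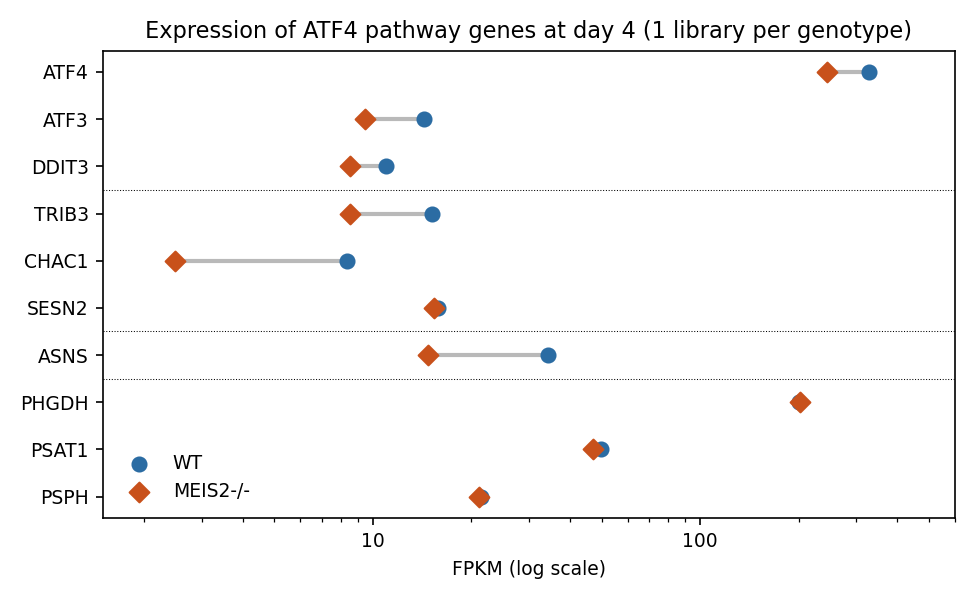
FPKM on a log scale for each gene in the WT library (circles) and the MEIS2-/- library (diamonds), joined by a line; dotted lines separate transcription factors, feedback and effector genes, ASNS and the serine synthesis enzymes. CHAC1 (8.33 and 2.49 FPKM) and ASNS (34.22 and 14.70 FPKM) have the longest lines, and the symbols of PHGDH, PSPH and SESN2 nearly coincide.

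CARE sequences were looked for because they are the known binding elements of ATF4. The motif was TGATGNAA on either strand, searched from 250 bases before to 50 bases after each annotated start site in promoters from RefSeq on GRCh38.p14. Promoters were found for 9 of the 10 genes (15 promoters). PSPH had none in the table. Of the 9 genes, 3 held a match, namely ATF3, ASNS and CHAC1, against 4.46% of all 27305 genes with a promoter. Of 27 other genes taken as ATF4 targets, 3 held one. The 10 genes were chosen for their link to ATF4, so a larger share than over all genes is no independent result. They also had more promoters per gene than all genes, which had 35097 promoters. The matches are shown in capitals below in 30 bases read 5′ to 3′ in the direction of the gene. That of CHAC1 lies on the opposite strand and therefore reads as the reverse complement.
ASNS: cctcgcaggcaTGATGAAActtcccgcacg
CHAC1: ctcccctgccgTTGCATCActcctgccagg
ATF3: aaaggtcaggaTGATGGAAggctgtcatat

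The ASNS sequence is at chr7:97872458-97872487 on the minus strand, with the match starting 68 bases before a RefSeq start site. In GENCODE 29 it lies within an exon of 4 of the 17 ASNS transcripts, which start further upstream. The CHAC1 sequence is at chr15:40953251-40953280 on the plus strand, with the match starting 209 bases before the RefSeq start site, and 2 of its 5 GENCODE transcripts have it in an exon. The ATF3 sequence is at chr1:212565205-212565234 on the plus strand, with the match starting 191 bases before a RefSeq start site and upstream of all 11 GENCODE transcripts. The 2 genes with the largest differences, CHAC1 and ASNS, were thus among the 3 with a match, while TRIB3, ATF4 and DDIT3, which also had lower values in the MEIS2-/- library, had none in these windows. Across all compared genes with a promoter, the median log2 fold change was 0.08 over the 287 with a match and 0.13 over the 10320 without. The CRE palindrome TGACGTCA, an ATF and CREB site, and ERSE, the endoplasmic reticulum stress element, were found in none of the 9 genes, and in 2.25% and 0.0916% of all genes with a promoter. A match of letters is not a binding site, and its absence says only that these letters are not in the window.

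Among the transcription factors, ATF4 had the highest level of the 10 genes in both libraries. It was at 327.67 FPKM in the WT library and 243.87 FPKM in the MEIS2-/- library, a log2 fold change of -0.43. The MEIS2-/- library thus held 74.4% of the WT level, and ATF4 stood at rank 186 of all listed genes by level in WT and rank 239 in MEIS2-/-. ATF4 lies on the plus strand of chromosome 22 (39519695 to 39522685, GRCh38, GENCODE 29). Its 2 RefSeq transcripts in the tables have 7 and 3 ATG triplets before the coding start, of which 2 and 1 open a reading frame that runs over that start, the arrangement through which its translation is known to be regulated. ATF3, a bZIP repressor and activator induced by ATF4 and by other stresses, was at 14.28 FPKM in WT and 9.49 FPKM in MEIS2-/-, a log2 fold change of -0.58. DDIT3, which encodes the pro-apoptotic factor CHOP, was at 10.97 FPKM in WT and 8.51 FPKM in MEIS2-/-, a log2 fold change of -0.36. All 3 factors were thus lower in the MEIS2-/- library, each by less than 2-fold. In GENCODE 29 DDIT3 shares 355 exonic bases with the methionyl-tRNA synthetase gene MARS1 and 58 with MBD6, both on the opposite strand, and 105 with a protein-coding gene under a clone name on the same strand. Whether strand was used in counting is not given in the sources used here, so reads from these shared bases could not be assigned with certainty. MARS1 was at 71.36 FPKM in WT and 77.76 FPKM in MEIS2-/-.

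The feedback and effector genes included the gene with the most negative difference, CHAC1, and one that was nearly level, SESN2. CHAC1 encodes a gamma-glutamylcyclotransferase that degrades glutathione, and it was the lowest of the 10 genes in both libraries, at 8.33 FPKM in WT and 2.49 FPKM in MEIS2-/-. It was therefore 3.35-fold lower in MEIS2-/- and stood at rank 379 of the 13075 compared genes, counted from the most negative log2 fold change. Its size depended on the pseudocount, with a log2 fold change of -1.42 when 1 FPKM was added to each value. TRIB3, a pseudokinase that binds and restrains ATF4, was at 15.14 FPKM in WT and 8.53 FPKM in MEIS2-/-, a log2 fold change of -0.82, and was the closest of the genes to the 2-fold line without reaching it. SESN2 encodes Sestrin 2, a leucine sensor that inhibits mTORC1 and is induced by both ATF4 and p53. It was at 15.82 FPKM in WT and 15.42 FPKM in MEIS2-/-, a log2 fold change of -0.04. CHAC1 thus had 29.9% and SESN2 97.5% of the WT level in the MEIS2-/- library.

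The biosynthetic enzymes differed between asparagine and serine. ASNS, asparagine synthetase, was at 34.22 FPKM in WT and 14.70 FPKM in MEIS2-/-, 2.33-fold lower and at rank 776 on the same count. In GENCODE 29 it shares 1985 exonic bases with a processed transcript under a clone name on the same strand, so reads from these bases could belong to either, and the values of ASNS are uncertain to that extent. PHGDH, the enzyme that commits 3-phosphoglycerate to serine, was at 200.33 FPKM in WT and 201.63 FPKM in MEIS2-/-, a log2 fold change of 0.01. PSAT1, the aminotransferase of the next step, was at 49.86 FPKM and 46.97 FPKM, a log2 fold change of -0.09. PSPH, the phosphatase that releases serine, was at 21.47 FPKM and 21.05 FPKM, a log2 fold change of -0.03. In both libraries the levels followed the order of the pathway, highest for PHGDH, then PSAT1, then PSPH. Together the 3 enzymes summed to 271.66 FPKM in WT and 269.65 FPKM in MEIS2-/-, while the other 7 genes summed to 426.43 FPKM and 303.01 FPKM. Expressed as a share of PHGDH, ASNS was 17.1% in WT and 7.29% in MEIS2-/-. Relative to the median of all compared genes, 0.12, the 3 serine enzymes were slightly below the rest of the transcriptome. RefSeq names 4 pseudogenes of ATF4, 5 of ASNS, 4 of PSAT1 and 1 of PSPH. None is listed in the tables, so how reads from such copies were assigned is unknown and the values of these 4 genes are uncertain to that extent.

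**Figure D2:**
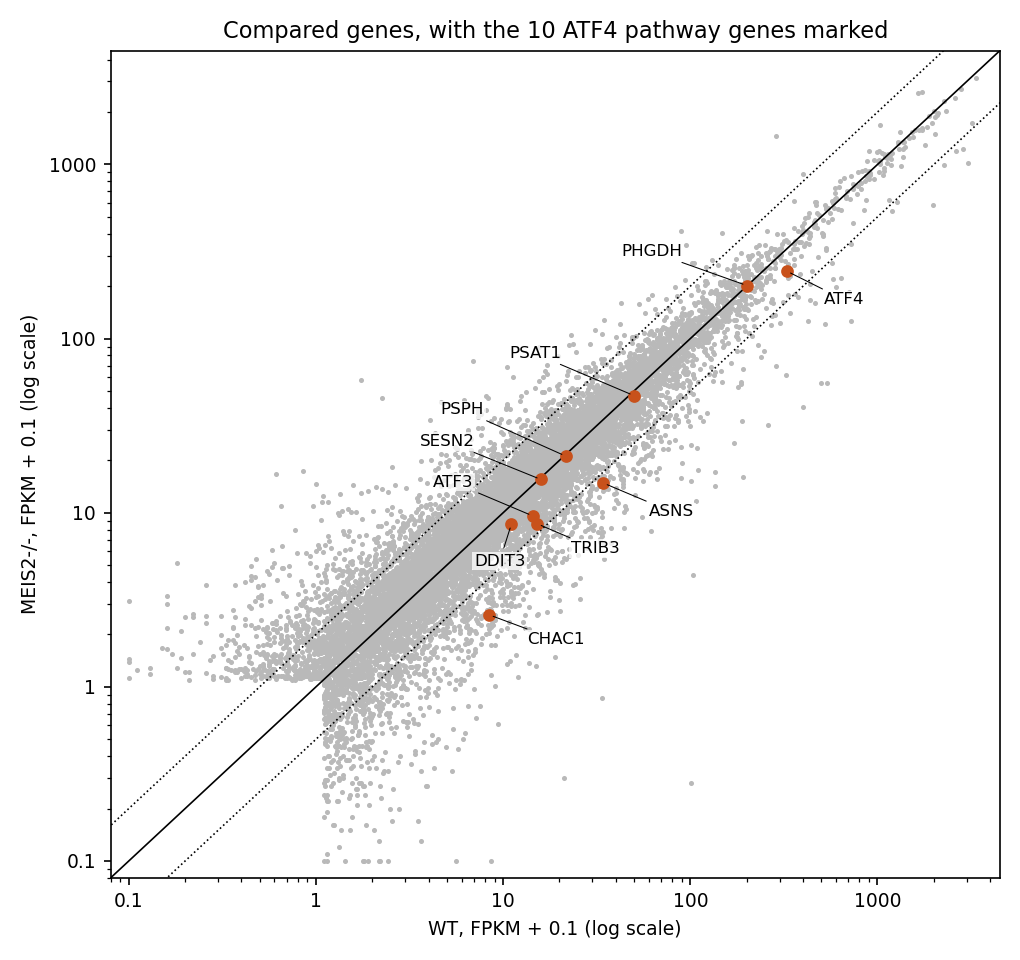
Each grey point is 1 of the 13075 compared genes, with its WT level on the x axis and its MEIS2-/- level on the y axis (FPKM + 0.1, log scales); the solid line marks equal levels and the dotted lines 2-fold differences. CHAC1 and ASNS lie below the lower dotted line, and PHGDH, PSAT1, PSPH and SESN2 lie on or next to the line of equality.

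The order of levels in WT was ATF4, PHGDH, PSAT1, ASNS, PSPH, SESN2, TRIB3, ATF3, DDIT3 and CHAC1. In MEIS2-/- ASNS moved below PSPH and SESN2, and ATF3 stood above TRIB3. With no replicate, neighbours such as SESN2 and TRIB3 in WT (15.82 and 15.14 FPKM) or TRIB3 and DDIT3 in MEIS2-/- (8.53 and 8.51 FPKM) cannot be ranked.

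**Figure D3:**
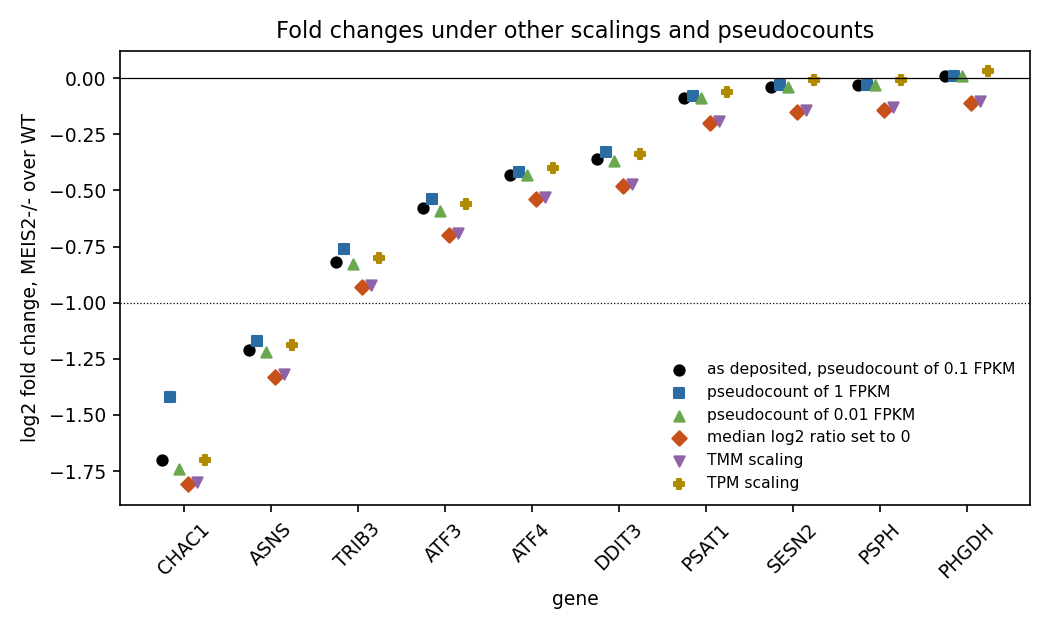
Log2 fold change of each gene (x axis) as deposited and under 2 other pseudocounts and 3 rescalings of the libraries; the dotted line marks 2-fold lower. CHAC1 (-1.81 to -1.42) and ASNS (-1.33 to -1.17) stayed past the line under these 5 alternatives, TRIB3 (-0.93 to -0.76) stayed short of it, and PHGDH crossed 0 (-0.11 to 0.03).

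Upstream of ATF4, the genes that act on eIF2 phosphorylation stayed within 2-fold, with log2 fold changes from -0.64 to 0.72. None of 19 compared genes for eIF2 kinases, eIF2 phosphatase subunits, eIF2B and their regulators was 2-fold different, and the median log2 fold change was 0.15. Among all compared genes 7.97% were at least 2-fold lower and 7.84% at least 2-fold higher, so with 19 genes this count is a description only. At 1.5-fold, 1 of the 19 was lower and 2 were higher. The kinase genes were at 23.25 and 24.35 FPKM for EIF2AK1 (HRI, the heme-regulated kinase), 2.77 and 4.34 FPKM for EIF2AK2 (PKR), 6.64 and 7.09 FPKM for EIF2AK3 (PERK) and 11.62 and 10.79 FPKM for EIF2AK4 (GCN2, the sensor of uncharged tRNA), WT first. The largest difference among them was that of EIF2AK2, with a log2 fold change of 0.63. PPP1R15A (GADD34), the inducible phosphatase subunit and itself a known ATF4 target, had the most negative log2 fold change of this group, -0.64. It was at 39.69 FPKM in WT and 25.45 FPKM in MEIS2-/-. Next were the constitutive subunit PPP1R15B at -0.50 and the adaptor NCK1 at -0.43. EIF2B1 (0.72) and the mitochondrial protease OMA1 (0.48) were on the other side.

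Of 34 other genes taken as ATF4 targets, 30 were compared. The list left out amino acid transporters, tRNA synthetases and one-carbon enzymes, although SLC7A11, SHMT2 and MTHFD2 among them are known ATF4 targets. Those groups are described below and had medians of 0.22, 0.13 and 0.28. The values of this list are therefore not those of ATF4 targets in general. NUPR1, FGF21, CDSN and NIBAN1 were under 1 FPKM in both libraries and were not compared. Among the 30 genes, 8 were at least 2-fold lower and 2 at least 2-fold higher, 22 were lower by any amount, and the median log2 fold change was -0.41. The shares over all compared genes were 7.97%, 7.84% and 40.6%, and their median was 0.12. This list was also written with earlier results of these data known, so the comparison is not independent. The number at least 2-fold higher was 1 with a pseudocount of 1 FPKM and 4 without a filter on low values. The most negative log2 fold changes were those of DDIT4 (REDD1, an mTORC1 inhibitor), at 499.98 FPKM in WT and 55.50 FPKM in MEIS2-/-, STC2 (stanniocalcin 2), at 17.75 and 3.18 FPKM, and GADD45A, at 180.44 and 52.62 FPKM. The most positive was that of PMAIP1 (NOXA, a BH3-only death protein), at 10.41 FPKM in WT and 42.00 FPKM in MEIS2-/-, followed by ATF5 with a log2 fold change of 1.14. Many of these genes are also known to be induced by hypoxia (DDIT4, STC2, VLDLR, VEGFA) or by p53 (GADD45A, BBC3, TNFRSF10B, PMAIP1, GDF15). Leaving out these 9 genes, a choice made after the values were seen, left 21 compared genes, of which 1 was at least 2-fold lower (ADM2, -1.23) and 1 at least 2-fold higher (ATF5), with a median of -0.19. The 9 genes left out had a median of -1.51, with 7 at least 2-fold lower. Whether hypoxia or p53 had a part in the values of the ATF4 targets was not tested.

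The bZIP partners and relatives of ATF4 differed in both directions. Of 23 compared genes, 3 were at least 2-fold lower, namely FOS (-2.50), JUN (-1.22) and JUNB (-1.14). Another 3 were at least 2-fold higher, namely CEBPA (1.36), ATF5 (1.14) and CEBPZ (1.13). CEBPZ carries the C/EBP name but does not encode a bZIP protein, so it is a relative in name only. The shares over all compared genes were 7.97% lower and 7.84% higher. The median of the group was -0.16. CEBPB and CEBPG, which encode known partners of ATF4 on CARE sites, had log2 fold changes of -0.47 and 0.13. Rescaling by the median ratio or by TMM gave 5 genes at least 2-fold lower in this group. Among the relatives of the 10 genes, TRIB2 was lower (-0.74) and TRIB1 nearly level (-0.18), while CHAC2, the other glutathione-degrading CHAC enzyme, went opposite to CHAC1, from 1.13 FPKM in WT to 2.21 FPKM in MEIS2-/- (0.91). SESN1 (0.21) and SESN3 (0.16) were close to SESN2 in showing little difference. JDP2, a relative of ATF3, had a log2 fold change of -0.79.

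The 16 compared amino acid transporters had a median of 0.22, with 12 higher, 1 of them 2-fold (SLC43A1, 1.29), and 1 at least 2-fold lower (SLC38A3, -2.35, from 1.94 to 0.30 FPKM). Of all compared genes, 59.3% were higher by any amount, 7.84% at least 2-fold higher and 7.97% at least 2-fold lower. With the median ratio set to 0, the transporter median was 0.10 and that of all compared genes 0.01. SLC7A5 (LAT1, the leucine carrier) was at 119.93 FPKM in WT and 215.22 FPKM in MEIS2-/- (0.84). SLC7A11, the cystine carrier and a known ATF4 target, was low in both, at 1.44 and 2.12 FPKM. SLC1A5, the glutamine carrier, was lower, at 176.68 and 101.56 FPKM (-0.80). None of the 20 cytosolic aminoacyl-tRNA synthetases was 2-fold different, with a median of 0.13 and extremes of -0.61 for AARS1 and 0.68 for HARS1.

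Downstream of serine, the 22 compared serine, glycine and one-carbon genes had a median of 0.28, and 15 were higher, against the same 59.3% of all compared genes. With the median ratio set to 0, their median was 0.17. At least 2-fold higher were 7.84% of all compared genes, and 7.97% were at least 2-fold lower. The 2 that were at least 2-fold higher were GLDC, the glycine-cleaving decarboxylase, at 7.27 FPKM in WT and 38.70 FPKM in MEIS2-/- (2.40), and MAT2A, which makes S-adenosylmethionine, at 29.16 and 65.03 FPKM (1.15). SHMT2 and MTHFD2, mitochondrial enzymes known as ATF4 targets, were at 106.94 and 75.80 FPKM (-0.50) and at 48.43 and 36.42 FPKM (-0.41), and the cytosolic SHMT1 and MTHFD1 had log2 fold changes of 0.50 and 0.91. Mitochondrial genes of the list did not share a direction, since MTHFD1L was nearly level (-0.09) and the other glycine cleavage genes GCSH (0.91), AMT (0.31) and DLD (0.27) were higher, like GLDC. The mitochondrial serine carrier gene SFXN1 and its relative SFXN3 had log2 fold changes of -0.81 and -0.92. Apart from GLDC and MAT2A, none of the 22 compared genes was 2-fold different, except SFXN3 after rescaling by the median ratio or TMM.

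The other stress pathways that share members with the ATF4 response gave their own values. None of the 21 genes of the ATF6 and XBP1 arms of the unfolded protein response was 2-fold different, with a median of 0.01 that became -0.10 with the median ratio set to 0 and -0.09 with TMM. HSPA5 (BiP), their sentinel chaperone, was at 225.47 FPKM in WT and 219.26 FPKM in MEIS2-/-. None of 16 NRF2 targets was 2-fold different (median 0.24). Of 19 compared p53 targets, 3 were at least 2-fold lower, namely CDKN1A (-2.50), GADD45A (-1.78) and BBC3 (-1.56). At least 2-fold higher were 2, PHLDA3 (1.57) and TP53I3 (1.48), and the median was -0.22. Over all compared genes the shares were 7.97% lower and 7.84% higher. GADD45A, BBC3 and TNFRSF10B are also among the ATF4 targets above, and SESN2 is in the p53 list.

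Marker genes of the cell types that such cultures can hold also differed between the libraries. Of 10 endothelium markers, 9 were lower in MEIS2-/-, against 40.6% of all compared genes. SOX17 was higher, at 141.01 FPKM in WT and 264.03 FPKM in MEIS2-/-, and is also counted among the visceral endoderm markers. The summed level of all 10 was 586.14 FPKM in WT and 371.62 FPKM in MEIS2-/-, and SOX17 made up most of the second sum. The 10 mesenchyme and mesoderm markers summed to 976.92 and 529.96 FPKM, with 7 lower. The 3 higher were TBXT (2.09), MIXL1 (1.43) and COL3A1 (0.10), so the list did not share a direction. Most of the difference in its sum came from COL1A1, at 464.09 and 160.87 FPKM. The 10 visceral endoderm markers, with SOX17, summed to 610.08 and 1268.61 FPKM (all 10 higher, against 59.3% of all compared genes). Most of the difference in that sum came from APOA1, at 401.38 FPKM in WT and 879.13 FPKM in MEIS2-/-. The 9 listed markers of undifferentiated cells summed to 819.59 and 2084.53 FPKM. Of the last, 8 were compared, with 6 higher and 2 lower, DNMT3B (-0.76) and PODXL (-0.23), and most of the difference in the sum came from POU5F1, at 285.65 FPKM in WT and 1454.14 FPKM in MEIS2-/-. SOX2 was at 0.09 and 0.15 FPKM. Of 10 hematopoietic markers, 4, including RUNX1 and the CD45 gene PTPRC, were under 1 FPKM in both libraries, and the other 6 were lower in MEIS2-/-. No marker of these lists was at 0 in either library. These are bulk libraries, in which fewer cells of a type and less RNA per cell cannot be told apart, and the part of cell composition in the lower values of CHAC1, ASNS and the other ATF4 genes was not tested.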

How the data were processed

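RNA-Seq libraries of H1-derived cells, 1 WT and 1 MEIS2-/-, were compared at day 4. The authors deposited FPKM values, 1 per gene, rounded to 2 decimals. The submitters' processing notes name BWA, Bowtie, RSEM and hg19, with no versions or roles, and sequencing was done by BGI with an Illumina TruSeq preparation. FPKM is relative to the library total, so large changes in a few genes shift all others. The values summed to 447542 in WT and 440651 in MEIS2-/-. Low values of short single-transcript genes did not fall on whole-read steps (agreement 0.19 in WT and 0.39 in MEIS2-/-, where 1 is complete), so the depth is unknown and no counting interval is given.

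NCBI Gene numbers were matched to RefSeq symbols (17365 of 17397). Log2 fold changes used a pseudocount of 0.1 FPKM and a filter of 1 FPKM, to be reached in either library, with 2-fold as the mark. No test was possible. The members and lists were chosen with earlier results of these data known. The genes named were the 10 members, MEIS2, the 3 most positive and 3 most negative of each pathway list (not all are printed), the eIF2 kinases and PPP1R15 genes, SHMT2, MTHFD2, SLC7A11 and relatives of the members. All other genes named, among them CEBPB, CEBPG, SHMT1, MTHFD1, MTHFD1L, GCSH, AMT, DLD, HSPA5, MARS1, MBD6, ADM2, VLDLR, VEGFA, TNFRSF10B, GDF15, single cell type markers and genes under the filter, were added after their values were seen. Alternatives were pseudocounts of 1 and 0.01, no filter or 5 FPKM, 1.5-fold and 4-fold marks, and rescaling by the median ratio of genes that both libraries had at 5 FPKM or above, by TMM (30% of ratios and 5% of means trimmed per side) or to equal library totals (TPM). The computation was tested on planted changes. Python 3.11.15, numpy 2.4.6, pandas 2.3.3 and matplotlib 3.10.9 were used, with GENCODE 29 for positions and transcripts.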

Additional observations from a re-analysis of the deposited data

How the results depend on the processing

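Under 5 alternative pseudocounts and scalings, 48 of 50 fold changes of the 10 genes kept their direction and their side of 2-fold. The exceptions were those of PHGDH, which turned from 0.01 to -0.11 with the median ratio set to 0 and -0.10 with TMM. The median of the 10 genes ran from -0.51 to -0.37. The number of the 10 genes past the mark, 2 lower, became 0 at 4-fold. Among all compared genes (1042 lower, 1025 higher), the numbers lower and higher were 693 and 623 with a pseudocount of 1. They were 598 and 554 with a filter of 5 FPKM and 1516 and 1567 without a filter. At 1.5-fold they were 1890 and 2353, and at 4-fold 241 and 194. These changes follow from which values and genes each setting admits. With the median ratio set to 0 they were 1197 and 815, and with TMM 1179 and 837, since both move all values down in MEIS2-/-. No paired analysis was possible because each genotype has 1 library, and no replicate could be left out. The depth is unknown, so what it limits cannot be stated.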
